A study of Mus musculus with 4 samples.

Results

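Astrocyte and radial glia genes were examined in primary mouse neural stem/progenitor cells (NSCs), as a set of 10 genes chosen by name. They were Fabp7, Slc1a3, Slc1a2, Aqp4, S100b, Aldh1l1, Glul, Gja1, Apoe and Clu, 10 of the 18169 rows of the expression table, and all 10 passed the minimum mean of 1 TPM (transcripts scaled to a fixed total per sample) used for testing. RNA sequencing covered 4 samples of C57BL/6 mice, 2 +/+ and 2 Chd5-/-, the latter from mice deficient for the chromatin remodeller Chd5. Each culture came from the periventricular brain tissue of a separate newborn and was kept undifferentiated in proliferation medium with EGF and FGF2. The growth protocol gives postnatal day 1 for all cultures, whereas the age entries assign days 1 and 2 to +/+ replicates 1 and 2 and days 3 and 4 to Chd5-/- replicates 1 and 2, so by those entries age and genotype cannot be told apart.

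Radial glia are the stem cells of the developing brain, and in the postnatal ventricular zone their descendants persist as stem cells that keep many astrocyte features. The same transcripts therefore occur in NSCs and in astrocytes. Fabp7 (brain lipid-binding protein) and Slc1a3 (the glutamate transporter GLAST) are the classical radial glia markers, whereas Aqp4 (the water channel of astrocyte endfeet), S100b (a calcium-binding protein) and Aldh1l1 (a folate enzyme) are used to mark more mature astrocytes.

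The promoters of the 3 most abundant of these genes are shown because transcription factors of the NFI, STAT, Notch and SOX families are known to act on glial genes. The bases lie upstream of the annotated start (RefSeq, GRCm38.p6) and are given on the strand of the gene, chr10:57784673-57784880 (plus) for Fabp7, chr15:8710808-8711057 (minus) for Slc1a3 and chr7:19699189-19699438 (minus) for Apoe. Capitals mark TTGGC, the NFI core motif, in Fabp7 and Apoe and TTCCNNGAA, the STAT motif, in Slc1a3, each searched on both strands.
Fabp7: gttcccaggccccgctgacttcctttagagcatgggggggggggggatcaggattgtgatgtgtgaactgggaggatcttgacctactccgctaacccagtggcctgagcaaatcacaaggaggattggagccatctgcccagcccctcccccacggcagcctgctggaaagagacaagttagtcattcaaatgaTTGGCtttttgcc
Slc1a3: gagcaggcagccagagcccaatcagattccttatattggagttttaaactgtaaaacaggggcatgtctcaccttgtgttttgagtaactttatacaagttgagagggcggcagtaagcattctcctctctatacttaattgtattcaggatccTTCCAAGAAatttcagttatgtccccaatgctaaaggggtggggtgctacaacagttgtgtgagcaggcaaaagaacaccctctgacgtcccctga
Apoe: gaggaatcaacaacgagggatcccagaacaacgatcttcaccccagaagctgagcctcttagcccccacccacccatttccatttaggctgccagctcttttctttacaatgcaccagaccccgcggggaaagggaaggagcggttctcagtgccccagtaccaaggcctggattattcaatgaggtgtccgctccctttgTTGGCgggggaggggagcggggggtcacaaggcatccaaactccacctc
Promoter bases outside the gene were read for 6 members, these 3 and Gja1, Glul and S100b. TTGGC was present in 4 of the 6 and in 41.5% of 32851 mouse promoter windows of 250 bases, and TTCCNNGAA in 1 of the 6 (Slc1a3) and in 4.06% of windows. The RBPJ motif GTGGGAA, through which Notch acts (5.42% of windows), and the SOX motif AACAAT (9.42%) were in 0 of the 6, and the E-box CANNTG was in 5 (66.2%). These matches describe letters only.

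Chd5 itself was listed at 0.37 to 0.39 TPM in +/+ and at 0.04 to 0.06 TPM in Chd5-/- NSCs, all under the minimum for testing. TPM keeps no read number, so depth is unknown. The TPM columns correlated across rows with a Spearman rho of 0.974 between the +/+ samples and 0.904 between the Chd5-/- samples. The 20 most abundant rows held 32.4% to 35.6% of TPM in +/+ and 21.6% to 22.8% in Chd5-/- NSCs. Over all rows the median of the log2 fold change, Chd5-/- minus +/+, was 0.34 as deposited and 0.0052 after median-of-ratios scaling, and across rows the fold change went with transcript GC content (rho 0.60 over 12103 rows). Whether these features take part in the differences described next was not tested, except where values with another scaling are given.

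All 10 genes were present in all 4 samples. TPM is corrected for transcript length, so levels can be set side by side between genes. In the +/+ samples Fabp7 came first at 5104 ± 1114 TPM (SD, n = 2), and Slc1a3 followed at 1746 ± 177 TPM. Fabp7 ranked 13 and Slc1a3 ranked 61 among all rows of the table by mean TPM. Apoe, Slc1a2, Gja1 and Glul formed a middle group of 179.69 to 462.62 TPM, and neighbours within it overlapped. Aqp4, Clu, Aldh1l1 and S100b lay between 19.36 and 114.87 TPM, and neighbours within that group overlapped too. The genes used to mark mature astrocytes (Aqp4, Aldh1l1, S100b) thus stood below the radial glia markers in every sample. In the Chd5-/- samples Fabp7 was again first and S100b last, at 2881 ± 1332 and 26.0 ± 8.98 TPM, and all neighbours between Apoe, second, and Aldh1l1, ninth, overlapped.

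**Figure D1:**
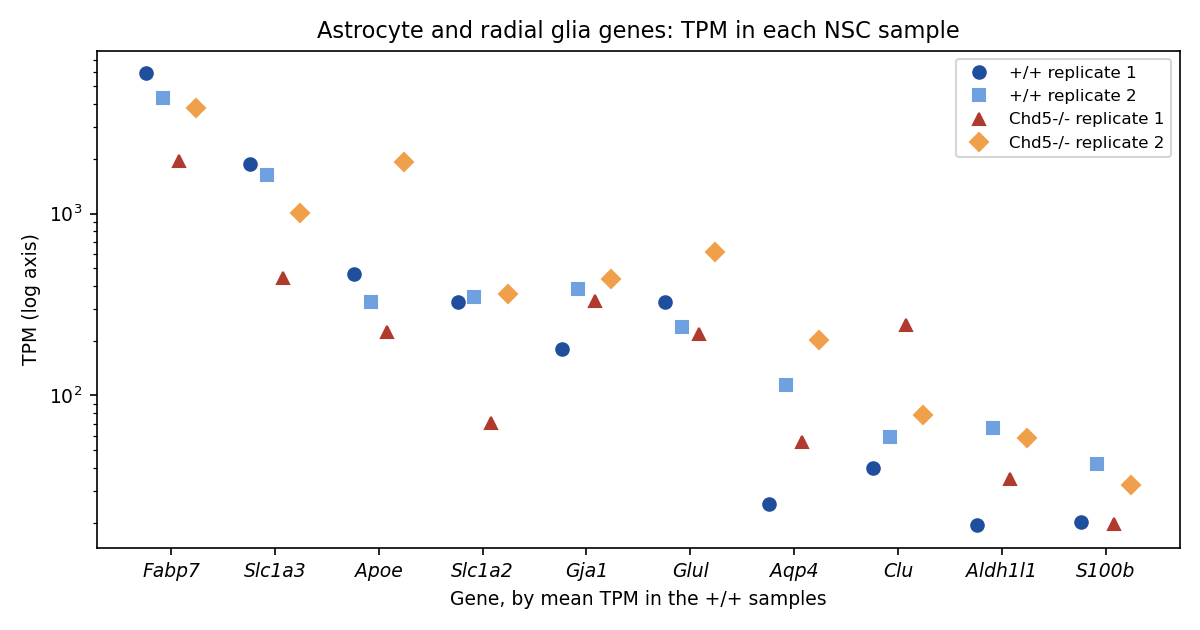
TPM (log axis) of each of the 10 genes in each of the 4 samples, ordered by mean TPM in the +/+ samples, with 1 point per sample. Fabp7 and Slc1a3 are lower in both Chd5-/- samples (triangles, diamonds) than in both +/+ samples (circles, squares), Clu is higher in both, and the other 7 genes overlap.

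The comparison of the genotypes asked whether these genes differed in undifferentiated Chd5-deficient NSCs. With limma on log2(TPM + 1), 0 of the 10 genes had an adjusted p-value under 0.05, beside 0.0557% of the 12576 rows tested, and the adjusted p-values of the 10 ranged from 0.162 to 0.800. At an unadjusted p-value under 0.05, 1 gene was lower in Chd5-/- (Slc1a3, where 2.27% of rows were) and 1 was higher (Clu, where 21.9% were). Without a test, 2 genes were below the +/+ range in both Chd5-/- samples (Fabp7 and Slc1a3, against 13% of rows) and 1 was above it (Clu, against 46.3%). The remaining 7 overlapped between genotypes, as did 40.6% of rows. The median log2 fold change of the 10 genes was 0.35, next to 0.34 for all rows, with 4 genes below 0 and 6 above. The genes thus did not share a direction, and they are described by role. An exact permutation test of a single gene with 2 samples per genotype cannot give a p-value under 0.333.

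**Figure D2:**
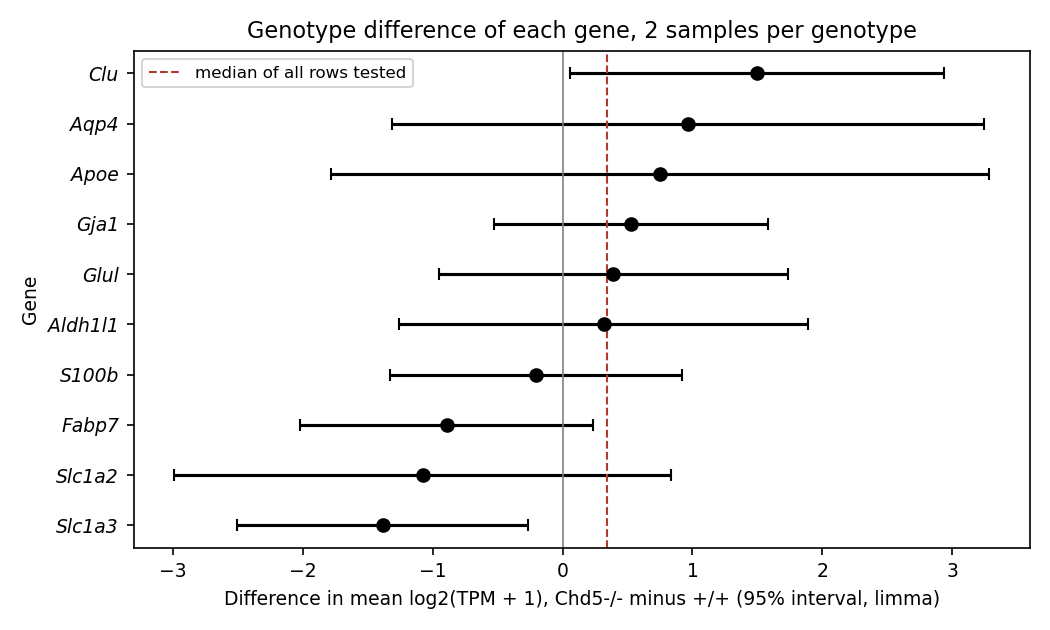
Difference in mean log2(TPM + 1) between Chd5-/- and +/+ NSCs for each of the 10 genes, with its 95% interval from limma (2 samples per genotype); the dashed line is the median of all rows tested, 0.34. The intervals of Slc1a3 (below 0) and Clu (above 0) leave out 0, and the other 8 cross it.

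Glutamate handling is carried out in astrocytes by the transporters Slc1a3 and Slc1a2 (GLT-1), which clear glutamate from the extracellular space, and by Glul, glutamine synthetase, which converts it into glutamine. Slc1a3 (chromosome 15 of GRCm38, 8634124 to 8710764, minus strand) stood at 1871.05 TPM in +/+ replicate 1, 1620.40 TPM in +/+ replicate 2, 442.25 TPM in Chd5-/- replicate 1 and 1005.58 TPM in Chd5-/- replicate 2. Both Chd5-/- samples were thus below both +/+ samples, and Chd5-/- replicate 2 was 2.27-fold above replicate 1. The difference was -1.38 on the log2(TPM + 1) scale (standard error 0.44, 95% interval -2.50 to -0.26, adjusted p = 0.162), or -1.72 relative to the median of all rows, and the ratio of the genotype means was 0.415.

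Slc1a2 (chromosome 2 of GRCm38, 102658659 to 102790784, plus strand) gave 326.56 and 349.49 TPM in the +/+ cultures, with 70.45 and 361.14 TPM in the Chd5-/- cultures. Here Chd5-/- replicate 1 alone was low and replicate 2 was the highest of the 4, so the difference of -1.07 had an interval of -2.99 to 0.84 (adjusted p = 0.420). The TPM ratio of Slc1a3 to Slc1a2 was 5.73 and 4.64 in the +/+ pair against 6.28 and 2.78 in the Chd5-/- pair. Glul (chromosome 1 of GRCm38, 153899944 to 153909723, plus strand) measured 327.02 and 236.94 TPM in +/+ NSCs, against 216.66 and 616.07 TPM in Chd5-/- NSCs, with the +/+ values between those of the Chd5-/- pair. Its difference was 0.39 (interval -0.95 to 1.74, adjusted p = 0.672).

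Of 16 further genes of glutamate and glutamine handling, 13 were tested, 0 had an adjusted p-value under 0.05, and 4 were higher and 0 lower by the unadjusted threshold, where 21.9% and 2.27% of all rows were. The median log2 fold change of the 13 was 0.79, beside 0.34 for all rows. The 3 with the smallest p-values among those that did not overlap were the glutamine transporters Slc38a3 (difference 1.81, adjusted p = 0.120) and Slc38a2 (1.14, adjusted p = 0.129) and the cystine/glutamate exchanger Slc7a11 (1.05, adjusted p = 0.120). Slc38a3 stood at 28.22 TPM in +/+ replicate 1, 23.87 TPM in +/+ replicate 2, 79.56 TPM in Chd5-/- replicate 1 and 109.49 TPM in Chd5-/- replicate 2. Glud1, glutamate dehydrogenase, had the highest level of the list and a difference of -0.070 (adjusted p = 0.935), with overlapping genotypes.

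Lipid carriage in glia rests on Fabp7, which binds fatty acids inside the cell, and on the secreted apolipoproteins Apoe and Clu (clusterin, also an extracellular chaperone). Fabp7 (chromosome 10 of GRCm38, 57784881 to 57788450, plus strand) gave 5891.59 and 4315.73 TPM in the +/+ cultures, with 1938.77 and 3822.43 TPM in the Chd5-/- cultures. Both Chd5-/- values were below both +/+ values, but Chd5-/- replicate 2 lay closer to +/+ replicate 2 than to Chd5-/- replicate 1. The difference was -0.89 (standard error 0.44, interval -2.02 to 0.24, adjusted p = 0.285), or -1.23 relative to the median of all rows, and the ratio of means was 0.564. After median-of-ratios scaling it was -1.26, and that of Slc1a3 was -1.76.

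Clu (chromosome 14 of GRCm38, 65968483 to 65981547, plus strand) measured 39.95 and 58.97 TPM in +/+ NSCs, against 244.50 and 78.60 TPM in Chd5-/- NSCs. It was the gene of the set that was higher in both Chd5-/- samples, with replicate 1 the highest and replicate 2 not far above the +/+ pair. The difference was 1.50 (standard error 0.57, interval 0.054 to 2.94, adjusted p = 0.196). It was 1.13 with size factors by median of ratios and 0.64 once the GC and length trends had been taken out, and with either change the genotypes overlapped. Apoe (chromosome 7 of GRCm38, 19696109 to 19699188, minus strand) stood at 462.62 TPM in +/+ replicate 1, 327.82 TPM in +/+ replicate 2, 222.41 TPM in Chd5-/- replicate 1 and 1926.12 TPM in Chd5-/- replicate 2. It was both lowest and highest in Chd5-/- cultures, which differed 8.66-fold from each other, and the genotype difference of 0.75 had an interval of -1.78 to 3.28 (adjusted p = 0.667), turning to -0.31 once the GC and length trends had been taken out. The ratio of Apoe to Clu TPM was 11.6 and 5.56 in the +/+ samples, 0.910 in Chd5-/- replicate 1 and 24.5 in Chd5-/- replicate 2, so these apolipoproteins stood in opposite order in the Chd5-/- pair.

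Among 21 partner genes of lipoprotein and lipid transport, 18 were tested, 0 had an adjusted p-value under 0.05, and 7 were higher and 0 lower at an unadjusted p-value under 0.05 (all rows, 21.9% and 2.27%). The median log2 fold change was 0.83, beside 0.34 for all rows. Sort1, the sorting receptor sortilin, had a difference of 1.25 (adjusted p = 0.120) and the lipid transporter Abca7 one of 1.30 (adjusted p = 0.130). Fabp5, a second fatty acid-binding protein and the most abundant of the list, measured 435.64 and 416.31 TPM in +/+ NSCs, against 1381.69 and 959.59 TPM in Chd5-/- NSCs. Fabp5 thus lay above the +/+ range in both Chd5-/- samples while Fabp7 lay below it, with a difference of 1.43 (adjusted p = 0.120).

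Membrane channels were represented by Gja1 (connexin 43, the gap junction protein that couples astrocytes) and Aqp4. Gja1 (chromosome 10 of GRCm38, 56377330 to 56402513, plus strand) gave 179.69 and 385.61 TPM in the +/+ cultures, with 332.51 and 434.30 TPM in the Chd5-/- cultures. The low value was that of +/+ replicate 1, and the other 3 samples lay within 332.51 to 434.30 TPM. Its difference was 0.53 (interval -0.53 to 1.58, adjusted p = 0.470). Aqp4 (chromosome 18 of GRCm38, 15389496 to 15410982, minus strand) measured 25.22 and 114.87 TPM in +/+ NSCs, against 55.81 and 202.85 TPM in Chd5-/- NSCs. Replicate 2 was the higher sample in both genotypes, and the difference of 0.97 had an interval of -1.31 to 3.24 (adjusted p = 0.536). The TPM ratio of Aqp4 to Gja1 was 0.140 and 0.298 in the +/+ pair against 0.168 and 0.467 in the Chd5-/- pair.

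Of 16 gap junction and water channel partners, 10 were tested, 0 had an adjusted p-value under 0.05 and 1 was higher and 0 lower at an unadjusted p-value under 0.05 (all rows, 21.9% and 2.27%; median difference 0.29). Dag1, dystroglycan, which helps to anchor Aqp4 at the endfoot, had a difference of 0.78 (adjusted p = 0.185), with both Chd5-/- samples above both +/+ samples. The junction scaffold Tjp1 had the highest level and a difference of -0.23 (adjusted p = 0.749). Kcnj10, the potassium channel Kir4.1 that shares astrocyte endfeet with Aqp4, measured 93.55 and 14.89 TPM in +/+ NSCs, against 4.04 and 13.33 TPM in Chd5-/- NSCs. The Chd5-/- samples were below the +/+ samples, but +/+ replicate 2 was close to Chd5-/- replicate 2, and the difference of -2.19 had an adjusted p = 0.237.

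The remaining markers of mature astrocytes were the least abundant of the set. S100b (chromosome 10 of GRCm38, 76253853 to 76261159, plus strand) stood at 20.14 TPM in +/+ replicate 1, 42.10 TPM in +/+ replicate 2, 19.64 TPM in Chd5-/- replicate 1 and 32.34 TPM in Chd5-/- replicate 2, a difference of -0.20 (interval -1.33 to 0.92, adjusted p = 0.800). Aldh1l1 (chromosome 6 of GRCm38, 90486427 to 90600203, plus strand) gave 19.36 and 66.45 TPM in the +/+ cultures, with 34.65 and 58.65 TPM in the Chd5-/- cultures, a difference of 0.32 (interval -1.26 to 1.89, adjusted p = 0.774). For both genes replicate 2 was the higher sample in each genotype and the genotypes overlapped, and the sign of the Aldh1l1 difference turned, to -0.050 with median-of-ratios size factors and to -0.40 once the GC and length trends had been taken out.

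Other S100 genes and folate enzymes were counted beside these markers. Of 9 S100 genes, 7 were tested, with 0 past the adjusted threshold, 1 higher at an unadjusted p-value under 0.05 (21.9% of all rows) and a median difference of 0.55. S100a13 (1.30, adjusted p = 0.130), S100a1 (1.22, adjusted p = 0.221) and S100a6 (0.80, adjusted p = 0.266) lay above the +/+ range in both Chd5-/- samples, and the most abundant, S100a10, had a difference of 0.13 (adjusted p = 0.856). Of 15 folate one-carbon enzymes tested, 0 passed the adjusted threshold and 2 were higher at an unadjusted p-value under 0.05, with a median of 0.35, close to that of all rows. Mthfd1l (1.11, adjusted p = 0.121) and Shmt2 (0.76, adjusted p = 0.210) were above the +/+ range, Mthfd2l (-0.41, adjusted p = 0.419) was below it, and Atic, the most abundant, had a difference of -0.080 (adjusted p = 0.901).

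Differences between cultures of 1 genotype were large for these genes. The median absolute difference between the samples of a pair, on the log2(TPM + 1) scale, was 0.52 in the +/+ pair and 1.34 in the Chd5-/- pair, where all rows gave 0.25 and 0.40. In the Chd5-/- pair 6 of the 10 genes differed by at least 1, as did 16.9% of rows, and in the +/+ pair 4 genes did, as did 4.05% of rows. For 8 genes the genotype difference was smaller than the difference within the Chd5-/- pair, the exceptions being Slc1a3 and Gja1.

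The within-pair differences had a direction in the Chd5-/- samples. Replicate 2 was above replicate 1 for 9 of the 10 genes in Chd5-/- (50.1% of rows), with Clu the exception, and for 6 genes in +/+ (33.7% of rows). The largest replicate differences in Chd5-/- were those of Apoe (3.11), Slc1a2 (2.34), Aqp4 (1.84) and Clu (-1.62), and in +/+ those of Aqp4 (2.14), Aldh1l1 (1.73) and Gja1 (1.10). Chd5-/- replicate 1 held the lowest value of 6 genes, Fabp7, Slc1a3, Slc1a2, S100b, Glul and Apoe, as it did for 16.7% of rows. The other 4 genes, Aqp4, Aldh1l1, Gja1 and Clu, were lowest in +/+ replicate 1, and 5 genes were highest in Chd5-/- replicate 2 (39.9% of rows). The summed level of the 10 genes was 9163 and 7518 TPM in the +/+ samples, 3578 TPM in Chd5-/- replicate 1 and 8538 TPM in Chd5-/- replicate 2. The sum in Chd5-/- replicate 2 thus lay within the +/+ range, and Fabp7 made up 64.3% and 57.4% of the sum in the +/+ pair, and 54.2% and 44.8% in the Chd5-/- pair. In cultures of mixed cells, fewer cells of a type and less RNA per cell cannot be told apart.

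**Figure D3:**
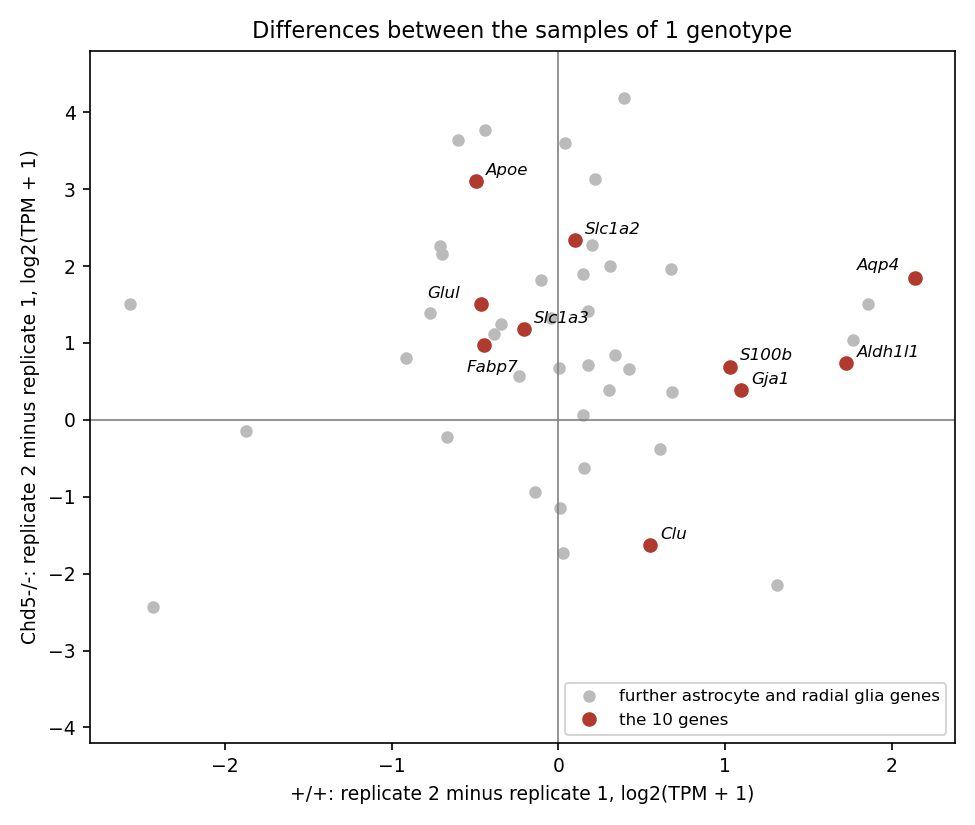
Replicate 2 minus replicate 1 on the log2(TPM + 1) scale in the +/+ pair (x axis) and in the Chd5-/- pair (y axis), for the 10 genes (red, named) and 39 further astrocyte and radial glia genes (grey). Of the 10 genes 9 lie above the horizontal line, from 0.38 for Gja1 to 3.11 for Apoe, and Clu lies below it at -1.62.

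Because of this spread, each sample was left out in turn. Without Chd5-/- replicate 1, Apoe had a difference of 2.30 (adjusted p = 0.0173) and Glul one of 1.14 (adjusted p = 0.0421), and both rose past the threshold, while the difference of Slc1a3 was -0.79 and that of Fabp7 was -0.40. Without Chd5-/- replicate 2, Slc1a2 (-2.25, adjusted p = 0.00874) and Slc1a3 (-1.97, adjusted p = 0.0186) were lower and Clu (2.31, adjusted p = 0.0145) was higher past the threshold, and Apoe was at -0.81. Which genes were called thus depended on the Chd5-/- culture left out, and so did the sign for 5 genes, Apoe, Glul, Slc1a2, S100b and Aldh1l1. Such fits assume that the lone sample varies as the other pair does, and they called 1549 and 1088 of all rows, against 7 with all samples and 0 without either +/+ sample. The adjusted p-values over all 17 alternatives spanned 0.0173 to 0.953 for Apoe, 0.0421 to 0.995 for Glul, 0.00874 to 0.862 for Slc1a2, 0.0186 to 0.762 for Slc1a3 and 0.0145 to 0.773 for Clu. Slc1a3 and Fabp7 had a difference below 0 and Clu one above 0 in all 17. Another minimum TPM, a replicate block alone and other eBayes settings leave the difference itself unchanged. Its sign could therefore turn only in the remaining alternatives.

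**Figure D4:**
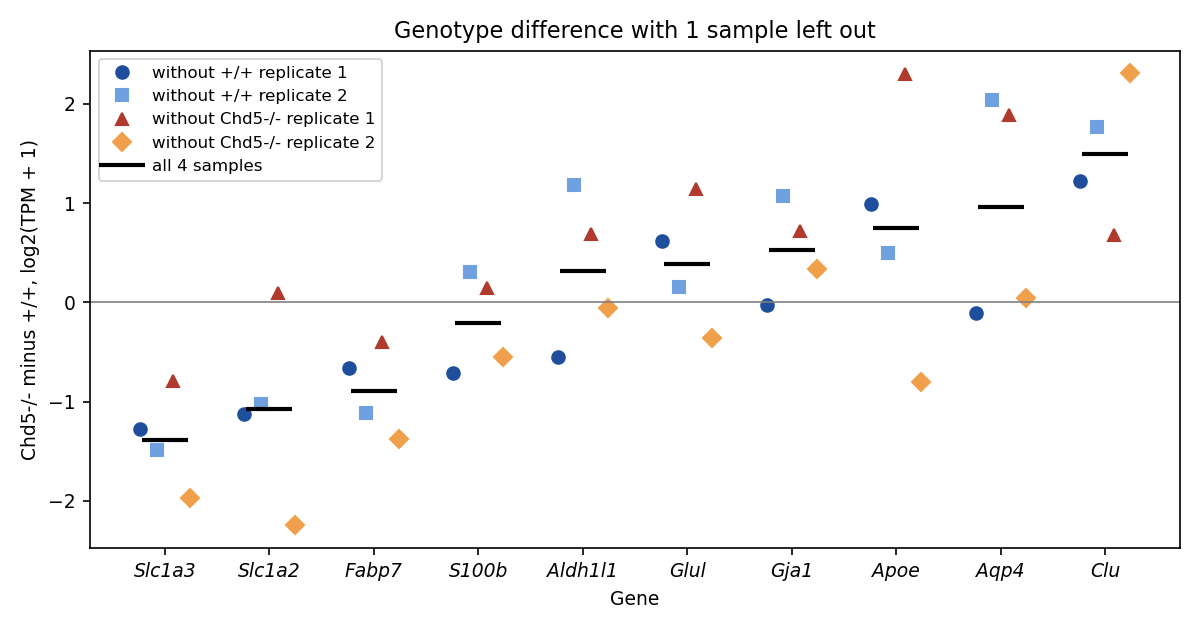
Chd5-/- minus +/+ difference in mean log2(TPM + 1) of each gene with all 4 samples (black bar) and with each sample left out (coloured points). Apoe moves from -0.81 to 2.30 and Slc1a2 from -2.25 to 0.096 depending on which Chd5-/- sample is left out, whereas Slc1a3 stays between -1.97 and -0.79.

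A wider list of 40 astrocyte and radial glia genes, none of them among the 10, showed a like mixture. Of 39 tested, 0 had an adjusted p-value under 0.05, 6 were higher and 1 lower at an unadjusted p-value under 0.05, 9 lay above and 4 below the +/+ range, and the median difference was 0.087. Over all rows 21.9% were higher and 2.27% lower at that threshold, 46.3% lay above and 13% below the +/+ range, and the median was 0.34. The 3 higher genes with the smallest p-values were Sparc, a matricellular glycoprotein (2.30, adjusted p = 0.120), Mt3, the brain metallothionein (2.04, adjusted p = 0.120), and Agt, angiotensinogen (3.13, adjusted p = 0.127). Sparc measured 119.53 and 192.81 TPM in +/+ NSCs, against 664.18 and 850.36 TPM in Chd5-/- NSCs. Below the +/+ range were F3, tissue factor (-1.63, adjusted p = 0.120), Kcnj10 and S1pr1, a sphingosine phosphate receptor (-1.01, adjusted p = 0.349), and Cpe, carboxypeptidase E, had the highest level (0.77, adjusted p = 0.260). As in the 10 genes, Chd5-/- replicate 1 was often the lowest sample, for 20 of the 39 (16.7% of all rows). Chd5-/- replicate 2 was the highest for 21 (39.9% of all rows). It exceeded Chd5-/- replicate 1 by at least 1 on the log2 scale for 21, as for 1006 of the 12576 rows.

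The intermediate filament genes, whose proteins mark NSCs and astrocytes, were in this list. Gfap, the astrocyte filament, measured 13.89 and 14.31 TPM in +/+ NSCs, against 0.71 and 19.66 TPM in Chd5-/- NSCs, a difference of -1.35 (adjusted p = 0.500). Vim stood at 1354.30 TPM in +/+ replicate 1, 1502.02 TPM in +/+ replicate 2, 1067.86 TPM in Chd5-/- replicate 1 and 1118.03 TPM in Chd5-/- replicate 2 (-0.38, adjusted p = 0.387), and Nes, a filament of progenitors, measured 74.73 and 83.22 TPM in +/+ NSCs, against 94.66 and 60.88 TPM in Chd5-/- NSCs (-0.054, adjusted p = 0.923). Gfap was therefore low in the same single culture as Slc1a2, and Vim was below the +/+ range in both Chd5-/- samples by a small margin.

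Upstream regulators of gliogenesis were measured as a list of 32 genes, all tested. The list had 0 genes past the adjusted threshold, 3 higher and 2 lower at an unadjusted p-value under 0.05 (all rows, 21.9% and 2.27%) and a median of 0.14. Emx2, a homeobox gene of cortical progenitors, measured 29.59 and 12.11 TPM in +/+ NSCs, against 2.30 and 0.20 TPM in Chd5-/- NSCs, a difference of -3.33 (adjusted p = 0.120). Id1, a target of BMP signalling, measured 45.84 and 30.35 TPM in +/+ NSCs, against 13.86 and 12.26 TPM in Chd5-/- NSCs (-1.45, adjusted p = 0.120), and the Notch target Hes1 had a difference of -0.70 (adjusted p = 0.225). All 3 lay below the +/+ range. Above it were Rfx4, a factor of the radial glia (0.95, adjusted p = 0.130), and the DNA methyltransferase Dnmt1 (0.71, adjusted p = 0.187). Sox2, the most abundant, had a difference of -0.58 (adjusted p = 0.416). Chd5-/- replicate 2 was the highest sample for 22 of the 32 (39.9% of all rows) and replicate 1 the lowest for 15 (16.7%).

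The 5 rows whose pattern over the 4 samples lay closest to that of Fabp7, by Euclidean distance of centred log2(TPM + 1) among 8199 rows of at least 10 TPM, were Nckipsd (0.057), Cdh4 (0.12), Zfpm2 (0.16), Ndp (0.20) and Itga6 (0.28). This likeness rests on 4 samples. Nckipsd, for instance, measured 126.81 and 91.34 TPM in +/+ NSCs, against 41.24 and 78.17 TPM in Chd5-/- NSCs, in the same order of samples as Fabp7.

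Markers of other cell types were summed beside these genes. The neuronal list summed to 779 and 790 TPM in the +/+ samples, 731 TPM in Chd5-/- replicate 1 and 1268 TPM in Chd5-/- replicate 2. The oligodendrocyte lineage list summed to 611 and 684, 552 and 1301 TPM in the same order. Of its 9 tested genes, 8 were highest in Chd5-/- replicate 2, where 39.9% of all rows were. Most of each sum came from Olig1 (300.77 to 664.38 TPM) and Olig2 (155.60 to 190.31 TPM), and Mag and Opalin were under 1 TPM in all 4 samples. Gpr17, a marker of differentiating oligodendrocyte precursors, was at 0.58 TPM in Chd5-/- replicate 1 and at 76.45 TPM in replicate 2. The culture in which Apoe, Glul, Slc1a2, Aqp4 and Gja1 were highest was thus also the one highest in these lists, and the part of cell composition in the result was not tested.

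Of 8 neuronal genes tested, 2 were higher and 1 lower at an unadjusted p-value under 0.05 (all rows, 21.9% and 2.27%), with Gap43 (1.84, adjusted p = 0.120), Syt1 (1.60, adjusted p = 0.173) and Elavl4 (0.68, adjusted p = 0.333) above and Elavl3 (-0.94, adjusted p = 0.177) below the +/+ range. Map2, the most abundant, measured 502.92 and 515.77 TPM in +/+ NSCs, against 365.59 and 784.89 TPM in Chd5-/- NSCs (0.073, adjusted p = 0.927). Of 9 oligodendrocyte lineage genes tested 0 passed either threshold, with Cspg4 (0.87, adjusted p = 0.286) and Olig2 (0.18, adjusted p = 0.627) above the +/+ range and Olig1, the most abundant, at 0.094 (adjusted p = 0.907). For microglia 3 of 12 markers had a row, Aif1, P2ry12 and Itgam, and these summed to between 0.32 and 0.75 TPM in all 4 samples. No marker found in the table was at 0 in all 4 samples.

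Ependymal markers summed to 3.36 and 4.12 TPM in +/+ and to 12.05 and 11.57 TPM in Chd5-/-, with Foxj1 (1.37, adjusted p = 0.122) and Cfap126 (1.29, adjusted p = 0.161) above the +/+ range. These genes made up most of the sums, and Dnah5, Dnah11, Ccdc153, Tmem212, Hydin and Ak7 were under 1 TPM in all 4 samples. Endothelial markers summed to 5.17 and 19.78 TPM in +/+ and to 2.42 and 1.29 TPM in Chd5-/-, and the 1 gene tested was Flt1 (-2.49, adjusted p = 0.135). Flt1 alone was at 4.29 and 19.45 TPM in +/+, and the other endothelial markers with a row were under 1 TPM in all 4 samples. Mesenchymal markers summed to 0.26 and 0.52 TPM in +/+, 37.84 TPM in Chd5-/- replicate 1 and 0.50 TPM in Chd5-/- replicate 2. Dcn, decorin, was listed at 0 in both +/+ samples, 4.17 TPM in Chd5-/- replicate 1 and 0.06 TPM in Chd5-/- replicate 2. Most of the sum in Chd5-/- replicate 1 came from Dcn, Postn (15.11 TPM), Acta2 (9.55 TPM) and Col3a1 (7.41 TPM). The mesenchymal markers Col1a1, Col1a2, Col6a3, Lum, Pdgfrb and Tagln were under 1 TPM in all 4 samples. Chd5-/- replicate 1 was the culture in which Clu was highest and Fabp7, Slc1a3 and Slc1a2 were lowest. Whether it held mesenchymal cells, and any part of cell composition in the result, was not tested. The 11 genes of dividing cells and NSCs had 0 past either threshold and a median difference of 0.58, and summed to between 1116 and 1535 TPM.

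**Figure D5:**
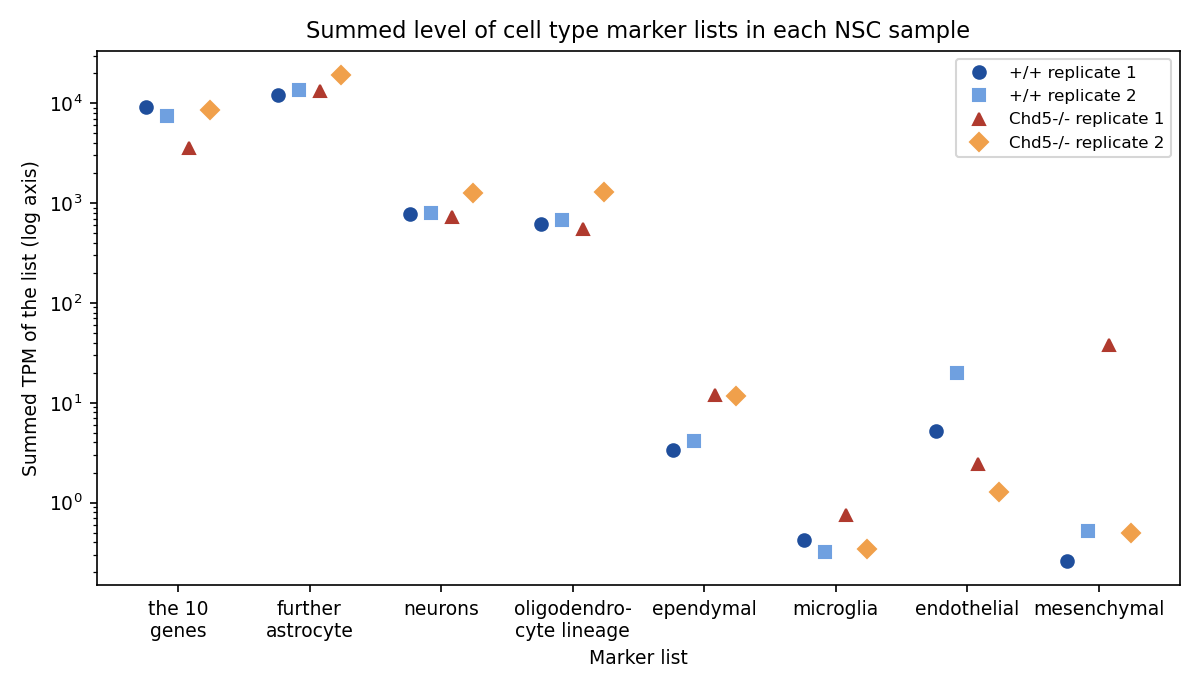
Summed TPM (log axis) of the 10 genes and of marker lists of other cells in each of the 4 samples. Chd5-/- replicate 1 (triangles) is lowest for the 10 genes at 3578 TPM and highest for mesenchymal markers at 37.84 TPM, and Chd5-/- replicate 2 (diamonds) is highest for neuronal and oligodendrocyte lineage markers.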

How the data were processed

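Poly(A)-selected RNA of 2 +/+ and 2 Chd5-/- NSC cultures was sequenced from stranded libraries. The authors deposited 1 table of TPM values, which were used as deposited. The submitters' processing notes name Bowtie2 2.2.3, RSEM 1.2.20 and mm10; the annotation and the use of strand are not given in the sources used here. Samples were grouped by their titles and every column was matched to a sample by name.

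The genotypes were compared on the log2(TPM + 1) scale with limma (version 3.58.1, R 4.3.3; lmFit, eBayes with trend, two-sided, no covariates) for the 12576 rows averaging at least 1 TPM, and adjusted by Benjamini-Hochberg over all of these rows. The pseudocount understates differences of low genes. TPM are not counts, so no count test was run. P-values set a difference against the spread between 2 cultures per genotype, which eBayes moderates toward a trend fitted over all rows tested. They do not rest on the spread of the single gene alone. The script was tested on simulated data.

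The 10 genes and all lists were chosen with earlier results of these data known, and counts in them are descriptions. All 10 were named, and from each list up to 3 tested genes per direction without overlap and with the smallest p-values, plus the most abundant; Gfap, Nes, Vim, Map2 and Chd5 were named because the study measured their proteins. The 5 rows nearest to Fabp7 were named by their distance. Gpr17 was named after its values were seen. A few genes that the rule would name are left out of the text.

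Positions, GC content and transcript length came from GENCODE M21 (GRCm38) and promoters from RefSeq (GRCm38.p6); 6 members had promoter bases upstream of the annotated gene that were read. Replicates carry the same numbers in both genotypes, but deviations of equal numbers correlated at -0.15 across rows, so numbers were not taken as pairs. Alternatives were other pseudocounts, minimum TPM values, scalings, removal of GC and length trends by loess, a replicate block, other eBayes settings and leaving out each sample. Python 3.11.15 with pandas 2.3.3, numpy 2.4.6 and matplotlib 3.10.9 made the tables and figures.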

Additional observations from a re-analysis of the deposited data

How the results depend on the processing

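With 2 samples per genotype and TPM without read numbers, small differences could not be resolved. Of 170 values of single genes under the alternatives, 14 changed sign. Those with another minimum TPM, a replicate block alone or other eBayes settings equal the main values by construction and could not change sign. The number of genes higher in Chd5-/- at an unadjusted p-value under 0.05 went from 1 to 0 without a minimum TPM, after quantile normalization, with median-of-ratios scaling, with TPM rescaled after leaving out the 20 most abundant rows, after removal of the GC and length trends, with eBayes without trend and with robust eBayes. The number lower went from 1 to 2 with quantile normalization, median-of-ratios scaling and that rescaling. Of all 12576 rows, 1024, 1311 and 819 were lower in that order, against 285 in the main fit. Rows that were higher numbered 1104, 1508 and 1871, against 2748, and 618 of 12103 after removal of the trends. The number of the 10 genes above the +/+ range went from 1 to 0 with median-of-ratios scaling and after removal of the trends, with or without a replicate block. The share of all rows above it is given for the main fit only (46.3%). The sign of Aldh1l1 reversed with median-of-ratios scaling (-0.050) and after removal of the trends (-0.40), and that of Apoe after the latter (-0.31), in each case also with the replicate block added to the trend removal. The causes were not tested.

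Leaving out 1 sample gave 0 to 3 genes past the adjusted threshold, 0 to 4 lower and 0 to 3 higher at an unadjusted p-value under 0.05, 2 to 6 below and 1 to 6 above the +/+ range. These counts followed those of all rows in part. Without Chd5-/- replicate 1 or replicate 2, more of all rows were lower and higher at that threshold than in the main fit. Without +/+ replicate 1 or replicate 2, fewer were. With 1 sample left in a genotype, genotypes also fall apart more often by order alone. Shares of all rows below and above the +/+ range are given for the main fit only. No conclusion on the 10 genes is drawn from these counts. The median of the 10 genes ranged from -0.45 to 0.69. Differences ranged from -0.11 to 2.04 for Aqp4, -0.021 to 1.08 for Gja1, -0.55 to 1.18 for Aldh1l1, -0.72 to 0.31 for S100b, -2.25 to 0.096 for Slc1a2, -0.36 to 1.14 for Glul, -0.81 to 2.30 for Apoe, 0.68 to 2.31 for Clu, -1.97 to -0.79 for Slc1a3 and -1.38 to -0.40 for Fabp7, the ends for Fabp7 being without Chd5-/- replicates 2 and 1.

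Rows with an adjusted p-value under 0.05 numbered 0 with the replicate block, 5 with crossed numbers (chosen after seeing the data), 0 without a minimum TPM (with 384 lower and 3089 higher at an unadjusted p-value under 0.05) and 3 with trends removed, against 7; under the block the smallest adjusted p-value of a member was 0.228, and it was 0.656 with trends also removed. Under the block, with or without trend removal, 1 gene was still higher at an unadjusted p-value under 0.05, but it was Aqp4 and no longer Clu (adjusted p = 0.228 and 0.274 under the block alone).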
